A study of Homo sapiens with 12 samples.

Results

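Genes of the epithelial-mesenchymal transition (EMT) were examined in SKOV3 and SKOV3/DDP cells with and without paeonol (PAE). The 10 genes form a list of names, in which no measured value serves as a criterion, drawn up with earlier results of these data known: CDH1, CDH2, EPCAM, VIM, FN1, ZEB1, ZEB2, SNAI1, SNAI2 and TWIST1. All 10 symbols were found among the 46350 named genes of the count files. The data were RNA sequencing counts of 12 libraries in 4 groups of 3: untreated SKOV3, SKOV3_PAE, untreated SKOV3/DDP and SKOV3/DDP_PAE. SKOV3 is labelled a cisplatin-sensitive line of human epithelial ovarian cancer and SKOV3/DDP a cisplatin-resistant one, which by the study's methods was developed from SKOV3. PAE is a phenolic compound, and the labels give neither its dose nor the time of treatment. The design text speaks of biological as well as experimental triplicates without saying which replicates are which, so the p-values measure the spread between these libraries, which may be technical.

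In EMT, epithelial cells give up their cell-to-cell junctions and take on the cytoskeleton, matrix and motility of mesenchymal cells. E-cadherin (CDH1) and EPCAM hold epithelial cells together, whereas N-cadherin (CDH2), vimentin (VIM) and fibronectin (FN1) are the usual adhesion molecule, filament and matrix protein of the mesenchymal state. The zinc finger proteins ZEB1, ZEB2, SNAI1 (Snail) and SNAI2 (Slug) and the helix-loop-helix protein TWIST1 are transcription factors known to drive EMT, and the zinc finger proteins bind E-box sequences in the CDH1 promoter and repress it. Carcinoma cells often express epithelial and mesenchymal genes side by side.

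Library totals ranged from 14610008 to 18263479 counts. Levels are CPM, counts scaled to the library size after TMM normalization, and a gene was called when its adjusted p was under 0.05 in edgeR's quasi-likelihood test. The 3 untreated SKOV3 libraries stood apart from the other 9. They had 17951 to 18240 named genes with a count against 21469 to 23194, and TMM factors of 0.644 to 0.674 against 0.975 to 1.23. Across 13845 genes, the deviation of a gene from its mean rose with its GC content in untreated SKOV3 (Spearman's rho 0.711 to 0.733) and fell with it in the other 9 libraries (rho −0.574 to −0.349). Each comparison with untreated SKOV3 was therefore repeated after each library was freed of a smooth trend on the GC content and length of genes. For the 10 genes these repeated values are given below wherever they end a call or turn a direction called in either analysis. For the wider gene lists the counts of calls are given, and named genes are marked where a call or sign changed. Whether this trend is technical or part of the difference between the cells cannot be told apart in this design, since all libraries of 1 group carry it. Where PAE was added to both lines, untreated SKOV3 is not one of the groups compared, although its libraries are part of the shared fit.

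The labelled cell type was checked against marker lists. The 7 genes of an ovarian carcinoma list summed to 8414 to 9152 CPM in SKOV3 and 8719 to 10910 CPM in SKOV3/DDP, and to 2582 to 3507 CPM in SKOV3_PAE and 1825 to 2779 CPM in SKOV3/DDP_PAE. Its genes did not move together. The keratins KRT8 and KRT18 averaged 3311 and 1498 CPM in SKOV3 and 5279 and 4190 CPM in SKOV3/DDP. KRT7, another keratin of ovarian carcinoma, was at 3607 ± 152 CPM (SD, n = 3) in SKOV3 and 1787 ± 478 CPM in SKOV3_PAE, but at 1.22 ± 1.03 CPM in SKOV3/DDP and 0.606 ± 0.118 CPM in SKOV3/DDP_PAE. The mean of PAX8, a transcription factor of Müllerian epithelium, was 29.7 CPM in SKOV3 and 4.13 CPM in SKOV3/DDP, and WT1 had at most 6 counts in any group. The 9 genes of an intestinal epithelium list summed to 0.316 to 1.11 CPM in the SKOV3 and SKOV3_PAE libraries, 559 to 607 CPM in SKOV3/DDP and 181 to 272 CPM in SKOV3/DDP_PAE. Its transcription factor CDX2 had no count in SKOV3 and 163 ± 49.8 CPM in SKOV3/DDP. The list was not evenly expressed in SKOV3/DDP, where CDH17 (mean 339 CPM) and CDX2 made up most of the sum. Of its 9 genes, 7 reached 1 CPM in at least 1 SKOV3/DDP library. GPA33, KRT20 and MUC2 averaged 0.926, 0.2085 and 0.125 CPM in that group. The untreated lines thus differed in lineage markers as well as in their labelled response to cisplatin, and the part of this difference in the results below was not tested. The defining markers of leukocytes (PTPRC, CD3E), endothelium (CDH5) and fibroblasts (COL1A2) had between 0 and 7 counts in each group. The 4 genes of the leukocyte list summed to 39.1 to 124 CPM per library through CD14 and CD68, the 3 endothelial genes to 0.343 to 10.6 CPM, and the 7 fibroblast genes to 0.385 to 17.7 CPM. Of the fibroblast genes, COL1A1 averaged 12.2 CPM in SKOV3 and 7.23 CPM in SKOV3_PAE. PDGFRB averaged 3.28 CPM in SKOV3 and DCN 3.05 CPM in SKOV3_PAE. The endothelial PECAM1 averaged 4.29 CPM in SKOV3 and 7.66 CPM in SKOV3_PAE.

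Between the untreated lines, SKOV3/DDP had more CDH1, EPCAM, VIM and ZEB1 and less FN1, SNAI1, SNAI2 and TWIST1 than SKOV3. All 8 members that passed the filter were called, 4 higher and 4 lower. In that comparison 84.7% of the 15323 genes tested were called, 46.1% as higher and 38.5% as lower, so the count of members called is near the background. After the GC and length trend was removed, 6 of the 8 were called (3 higher and 3 lower), beside 69.6% of genes. ZEB1 and SNAI1 lost their calls. The study's methods ask for a p under 0.05 without adjustment and a log2 fold change beyond 2 in either direction, which the same 8 members met, beside 57.4% of all genes tested. Of the other members, ZEB2 and CDH2 did not pass the filter on low counts.

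For PAE in SKOV3, 7 of the 9 members tested were called, 6 higher and 1 lower, beside 75.3% of 17133 genes (42.6% higher and 32.7% lower). After the GC and length trend was removed, 4 members were called (3 higher and 1 lower), beside 50.1% of genes (28.3% higher and 21.8% lower). Of these 4, CDH1 and EPCAM were called with the same sign in both analyses, FN1 was called with the opposite sign, and SNAI1 was called after the removal alone. In SKOV3/DDP, 3 of 9 members were called with PAE, all lower, beside 26.4% of genes (11.8% higher and 14.7% lower). CDH1, VIM and FN1 were the 3 that fell. ZEB2 and TWIST1 are among these 9 but had no count in either SKOV3/DDP group. They could not be called here or for the difference of the PAE effects. The effect of PAE differed between the lines for 5 of 9 members, in each case more negative in SKOV3/DDP, beside 62.9% of genes (25.5% more positive and 37.4% more negative). Between SKOV3/DDP_PAE and SKOV3_PAE, 8 of 9 members were called, 3 higher and 5 lower in SKOV3/DDP, beside 54.5% of genes (27.5% higher, 27.1% lower).

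Over all genes tested, log2 fold changes had a median of 0.415 between the untreated lines, 0.482 for PAE in SKOV3, 0.0 for PAE in SKOV3/DDP and 0.0642 between the lines with PAE. With scaling by library size alone it was 1.16, 1.36, 0.157 and 0.0354. For the difference of the PAE effects, SKOV3/DDP minus SKOV3, the median was −0.622, and −1.3 with that scaling. No called member changed direction under that scaling, in which 53.9% of all genes were called higher and 30.6% lower between the untreated lines, 52.9% and 22.4% with PAE in SKOV3, and 16.9% and 11.2% with PAE in SKOV3/DDP.

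**Figure D1:**
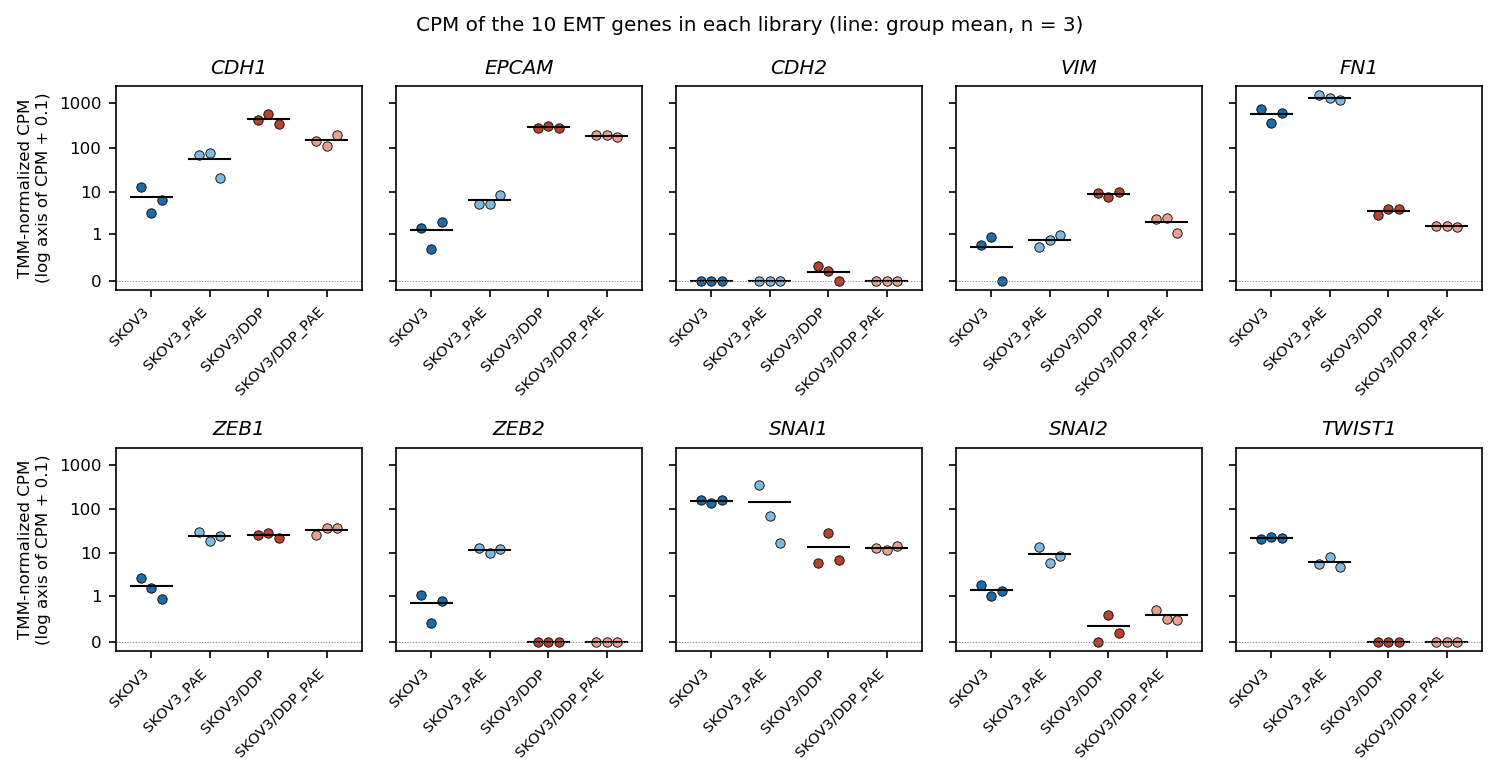
CPM of each of the 10 genes (vertical log axis of CPM + 0.1) in the 3 libraries of each group (points), with the group mean as a line. CDH1 and EPCAM were highest in SKOV3/DDP, FN1 was at 364 CPM or more in all libraries of SKOV3 and SKOV3_PAE and at 4.10 CPM or less in those of SKOV3/DDP and SKOV3/DDP_PAE, and ZEB2 and TWIST1 had no count in the SKOV3/DDP and SKOV3/DDP_PAE libraries.

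The epithelial adhesion genes were low in SKOV3 and high in SKOV3/DDP. CDH1 (gene ID 999, GRCh38 chromosome 16, 68737292 to 68835537, plus strand) encodes E-cadherin, the adhesion protein of adherens junctions. In the 3 SKOV3 libraries CDH1 measured 13.1, 3.32 and 6.44 CPM, and in SKOV3/DDP 411, 585 and 331 CPM. The lowest SKOV3/DDP library was above the highest SKOV3 library, and the log2 fold change was 5.80 ± 0.51 (SE, adjusted p = 1.16e-05). It was 5.15 after the GC and length trend was removed, and still called. Over the 6 fits without 1 library it ranged from 5.435 to 6.42, highest without SKOV3 replicate 1. In SKOV3_PAE CDH1 was at 67.6, 73.7 and 20.2 CPM, so the third library was well below the other two, and in SKOV3/DDP_PAE at 139.9, 111 and 196 CPM.

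With PAE, CDH1 moved in opposite directions in the 2 lines. CDH1 rose with PAE in SKOV3 by 2.82 ± 0.50 on the log2 scale (adjusted p = 1.12e-04), with no overlap between the groups. The rise was 2.08 after the trend was removed. Over the 6 fits without 1 library it was 2.46 to 3.46, largest without SKOV3 replicate 1. In SKOV3/DDP CDH1 fell by 1.57 ± 0.47 (adjusted p = 0.0229), also without overlap. The difference between these PAE effects was −4.39 ± 0.69 (adjusted p = 4.99e-05), and −3.66 after the trend was removed. Over the 12 fits without 1 library it ranged from −5.03 to −4.03, most negative without SKOV3 replicate 1. The fall in SKOV3/DDP did not pass the threshold without SKOV3/DDP replicate 2 (log2 fold change −1.32, adjusted p = 0.0626), without SKOV3/DDP_PAE replicate 1 (−1.49, 0.0768) or without SKOV3/DDP_PAE replicate 2 (−1.36, 0.0893). Between the PAE-treated lines, CDH1 remained higher in SKOV3/DDP by 1.47 ± 0.47 (adjusted p = 0.0150), a call lost without SKOV3/DDP_PAE replicate 3 (1.22, adjusted p = 0.0572).

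EPCAM (gene ID 4072, chromosome 2, 47369311 to 47387020, plus strand) encodes an epithelial surface glycoprotein. EPCAM was at 1.42, 0.426 and 1.95 CPM in SKOV3, from 16, 5 and 23 counts, and at 271, 313 and 282 CPM in SKOV3/DDP. The SKOV3/DDP libraries lay close together and far above SKOV3, with a log2 fold change of 7.77 ± 0.43 (adjusted p = 1.34e-06). In SKOV3_PAE it was at 5.35, 5.23 and 8.42 CPM, all above the untreated libraries, a rise of 2.32 ± 0.36 (adjusted p = 2.73e-05). Both stayed called after the trend was removed, the first at 7.68. In SKOV3/DDP_PAE EPCAM was at 192, 187 and 171 CPM. These values lay below all 3 untreated libraries, but the log2 fold change of −0.65 ± 0.29 was not called (adjusted p = 0.106). It was called by DESeq2 (adjusted p = 0.0447), by limma-voom (0.0295) and in a fit of these 6 libraries alone (0.0174). The PAE effect differed between the lines by −2.97 ± 0.46 (adjusted p = 4.55e-05), and by −2.62 after the trend was removed. EPCAM was also higher in SKOV3/DDP_PAE than in SKOV3_PAE, by 4.85 ± 0.34 (adjusted p = 2.19e-08).

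The mesenchymal members did not move together. CDH2 (gene ID 1000, chromosome 18, 27932878 to 28177130, minus strand), which encodes N-cadherin, had 2, 1 and 0 counts in SKOV3/DDP and none in the other 9 libraries. No comparison was possible for it. A total of 0 counts over the 3 libraries of a group allows up to 0.0862 CPM in SKOV3, 0.0537 CPM in SKOV3_PAE and 0.0501 CPM in SKOV3/DDP_PAE at 3 counts per group, for counting error only.

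VIM (gene ID 7431, chromosome 10, 17228241 to 17237593, plus strand) encodes the intermediate filament vimentin and was low throughout. In SKOV3 it was at 0.532, 0.852 and 0 CPM, from 6, 10 and 0 counts. In SKOV3/DDP it was at 9.17, 7.70 and 9.92 CPM, from 159, 122 and 162 counts. The line with the higher CDH1 also had the higher VIM, with no overlap between the lines. The log2 fold change was 4.19 ± 0.68 (adjusted p = 4.22e-04), and 3.73 after the trend was removed. It was 4.99 without SKOV3 replicate 2 and 3.596 without SKOV3 replicate 3, which had no count. In SKOV3_PAE VIM was at 0.465, 0.711 and 0.947 CPM, not separated from SKOV3 by these 8, 14 and 18 counts (log2 fold change 0.62 ± 0.68, adjusted p = 0.421). This value was −0.07 after the trend was removed, also not called. In SKOV3/DDP_PAE it was at 2.31, 2.54 and 1.10 CPM, and fell by 2.16 ± 0.55 on the log2 scale (adjusted p = 0.0100), without overlap. The difference of the PAE effects, −2.78 ± 0.87 (adjusted p = 0.0111), was not called after the trend was removed (−2.08, adjusted p = 0.0738). Over the 12 fits without 1 library it ranged from −3.58 to −2.20, most negative without SKOV3 replicate 2. VIM was higher in SKOV3/DDP_PAE than in SKOV3_PAE by 1.47 ± 0.58 (adjusted p = 0.0431). That call was lost without SKOV3_PAE replicate 1 (1.25, adjusted p = 0.131) or 2 (1.46, 0.0986), and without SKOV3/DDP_PAE replicate 1 (1.36, 0.107) or 2 (1.26, 0.126). It was also lost with limma-voom (1.43, adjusted p = 0.0836). VIM overlaps the antisense RNA VIM-AS1, which averaged 2.10 CPM over the 12 libraries, and since the strand of counting is not given in the sources used here, reads of the 2 cannot be told apart.

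FN1 (gene ID 2335, chromosome 2, 215360862 to 215436167, minus strand) encodes the matrix glycoprotein fibronectin and was the most abundant member in SKOV3 and SKOV3_PAE by CPM. FN1 was at 731, 364 and 587 CPM in SKOV3 and at 2.94, 4.04 and 4.10 CPM in SKOV3/DDP. FN1 was lower in SKOV3/DDP, with a log2 fold change of −7.30 ± 0.34 (adjusted p = 8.27e-07), and of −9.82 after the trend was removed. In SKOV3_PAE FN1 was at 1509, 1335 and 1173 CPM, above every untreated library, and the log2 fold change was 1.26 ± 0.24 (adjusted p = 2.35e-04). After the trend was removed this change was reversed, to −1.41 (adjusted p = 3.18e-05), so no direction can be given for the PAE effect on FN1 in SKOV3. In SKOV3/DDP_PAE FN1 was at 1.57, 1.65 and 1.54 CPM, and fell by 1.21 ± 0.28 (log2 fold change −1.21, adjusted p = 0.00635), with a log2 fold change of −1.30 after the trend was removed. This fall was not called by limma-voom (−1.19, adjusted p = 0.0548). The PAE effects differed by −2.47 ± 0.37 (adjusted p = 3.54e-05), but by 0.11 after the trend was removed (adjusted p = 0.820). Between the PAE-treated lines FN1 was lower in SKOV3/DDP, with a log2 fold change of −9.71 ± 0.35 (adjusted p = 1.44e-10), and of −9.75 after the trend was removed.

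**Figure D2:**
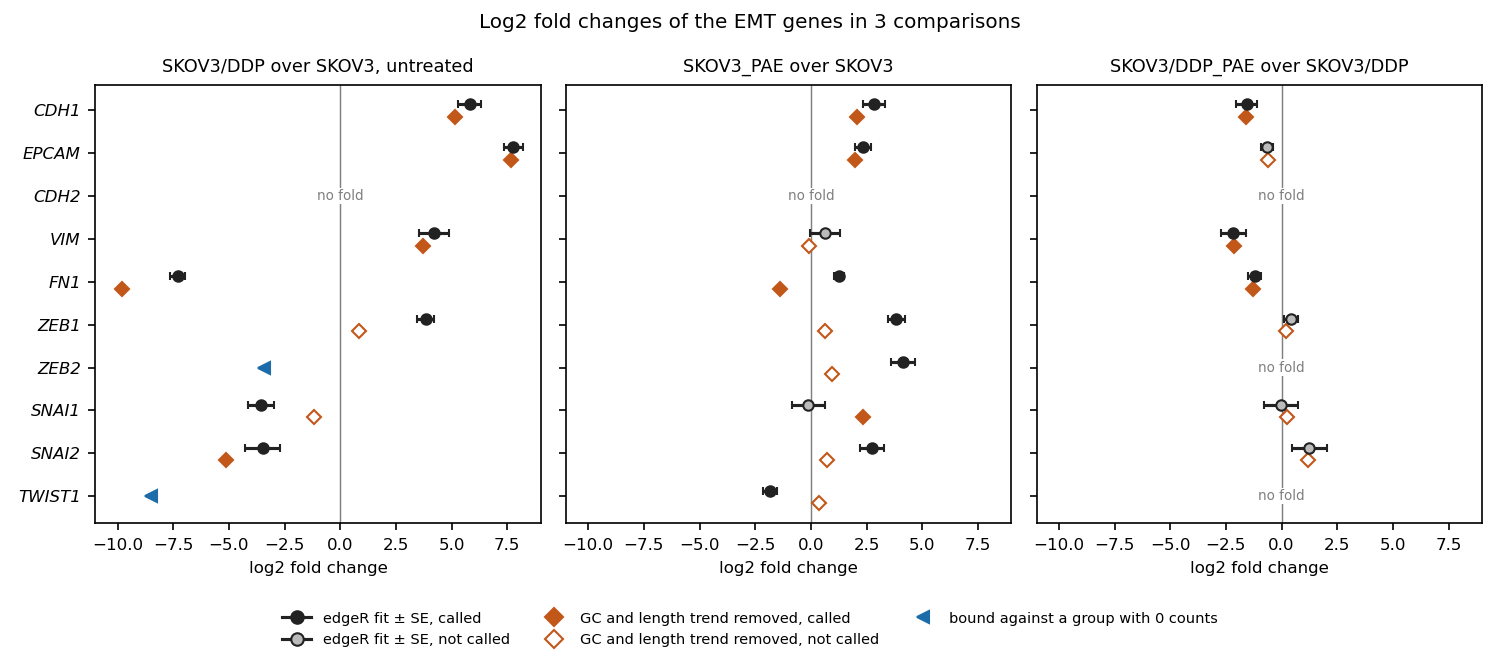
Log2 fold changes (horizontal axis) of the 10 genes between the untreated lines and with PAE in each line, from the edgeR fit with its standard error (circles) and after removal of the GC and length trend (diamonds), filled where called, with triangles for bounds against a group without counts. CDH1 and EPCAM kept their side of zero and their calls in the first 2 panels, while those of ZEB1, ZEB2, SNAI1, SNAI2, FN1 and TWIST1 moved by over 2 on the log2 scale for PAE in SKOV3.

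Of the 5 EMT transcription factors, ZEB2 and TWIST1 had counts in SKOV3 and SKOV3_PAE only, and ZEB1, SNAI1 and SNAI2 had counts in all 4 groups. ZEB1 (gene ID 6935, chromosome 10, 31318417 to 31529804, plus strand) and ZEB2 (gene ID 9839, chromosome 2, 144384081 to 144520119, minus strand) encode related zinc finger repressors of epithelial genes, and their patterns over the 4 groups differed. The bases before their annotated starts, and before that of FN1, are shown because in the SKOV3/DDP and SKOV3/DDP_PAE libraries ZEB2 had no count and FN1 at most 4.10 CPM, while ZEB1 had at least 22.3 CPM. RefSeq sequence of GRCh38.p14 was found for 5 of the 10 members (CDH2, FN1, VIM, ZEB1 and ZEB2), and each stretch below ends just before the start given in the count files. Capitals mark the E-box CAGGTG, searched on both strands (CAGGTG and CACCTG), the letters that ZEB and SNAI proteins are known to bind.
ZEB1, chr10:31318167-31318416, plus strand: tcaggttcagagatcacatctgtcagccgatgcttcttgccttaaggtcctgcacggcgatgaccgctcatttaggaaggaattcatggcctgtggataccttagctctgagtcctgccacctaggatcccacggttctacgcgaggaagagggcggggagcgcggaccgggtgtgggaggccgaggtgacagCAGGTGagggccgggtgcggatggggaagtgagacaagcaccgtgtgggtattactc
ZEB2, chr2:144520120-144520369, minus strand: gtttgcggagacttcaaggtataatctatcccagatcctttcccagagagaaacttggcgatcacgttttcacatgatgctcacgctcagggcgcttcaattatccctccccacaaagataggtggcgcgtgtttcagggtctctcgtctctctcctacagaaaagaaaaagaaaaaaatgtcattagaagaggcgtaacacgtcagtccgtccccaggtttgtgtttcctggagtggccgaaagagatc
FN1, chr2:215436168-215436318, minus strand: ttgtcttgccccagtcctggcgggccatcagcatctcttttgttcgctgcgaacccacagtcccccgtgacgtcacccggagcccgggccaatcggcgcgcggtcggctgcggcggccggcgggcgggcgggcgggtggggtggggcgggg
The motif stood 57 bases before the ZEB1 start and was not in the stretches shown for ZEB2 and FN1. It was present in 20.6% of the 35116 RefSeq windows from 250 bases before to 50 bases after a start, so a single match is no unusual feature. The third of the 7 ZEB1 windows held 3 matches, at 242 and 85 bases before its start and at 33 bases after it. The remaining ZEB1 windows and those of VIM and CDH2 held none. No match says only that these letters are not in the window.

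ZEB1 was at 2.75, 1.53 and 0.848 CPM in SKOV3 and at 25.4, 28.4 and 22.3 CPM in SKOV3/DDP. It was also high in SKOV3_PAE, at 30.4, 18.7 and 24.5 CPM, and in SKOV3/DDP_PAE, at 26.3, 38.0 and 37.3 CPM. The 3 untreated SKOV3 libraries were thus below the other 9, which overlapped one another. The log2 fold change between the untreated lines was 3.83 ± 0.40 (adjusted p = 2.92e-05), and that of PAE in SKOV3 was 3.84 ± 0.36 (adjusted p = 1.53e-07). Neither was called after the GC and length trend was removed (0.85, adjusted p = 0.0503, and 0.63, adjusted p = 0.0917). At 38.5%, the GC content of ZEB1 was the lowest of the members, against a median of 48.9% over genes. In SKOV3/DDP the log2 fold change with PAE was 0.42 ± 0.30 (adjusted p = 0.331), and with PAE in both lines that between them was 0.47 ± 0.30 (adjusted p = 0.206). The PAE effects differed by −3.42 ± 0.46 (adjusted p = 1.32e-05), but by −0.41 after the trend was removed (adjusted p = 0.428). The antisense RNA ZEB1-AS1 overlaps ZEB1 and averaged 6.79 CPM over the 12 libraries.

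ZEB2 had no count in the 6 libraries of SKOV3/DDP and SKOV3/DDP_PAE. Over a group of 3, 0 counts allow up to 0.0606 CPM in SKOV3/DDP and 0.0501 CPM in SKOV3/DDP_PAE. In SKOV3 ZEB2 had 12, 2 and 9 counts (1.06, 0.170 and 0.763 CPM), at least 10.9-fold more than in SKOV3/DDP, too few to pass the filter of that comparison. In SKOV3_PAE it had 222, 197 and 236 counts (mean 11.8 CPM), at least 234-fold more than in SKOV3/DDP_PAE (adjusted p = 2.06e-06). ZEB2 rose with PAE in SKOV3 by 4.13 ± 0.54 on the log2 scale (adjusted p = 2.78e-05), and the value was 0.95 and not called after the trend was removed (adjusted p = 0.104). Its GC content was 39.1%.

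SNAI1 (gene ID 6615, chromosome 20, 49982980 to 49988886, plus strand) encodes Snail, a short-lived repressor of CDH1. In SKOV3 SNAI1 was at 163, 139.9 and 163 CPM, the most even of the groups together with SKOV3/DDP_PAE at 13.2, 11.9 and 15.0 CPM. In SKOV3/DDP it was at 5.83, 28.4 and 7.04 CPM, with the second library above the others. In SKOV3_PAE it was at 344, 69.9 and 16.6 CPM, a 20.7-fold range within 1 group that covered the untreated values. SNAI1 was lower in SKOV3/DDP than in SKOV3 by 3.56 ± 0.59 on the log2 scale (log2 fold change −3.56, adjusted p = 4.74e-04). Over the 6 fits without 1 library the value ranged from −4.64 to −3.16, most negative without SKOV3/DDP replicate 2. It was not called after the trend was removed (−1.17, adjusted p = 0.0798), and its GC content of 58.2% was the highest of the members. PAE in SKOV3 gave a log2 fold change of −0.11 ± 0.73 (adjusted p = 0.908). This was −1.84 and called without SKOV3_PAE replicate 1 (adjusted p = 0.0167), but 2.34 and called after the trend was removed (adjusted p = 0.0260), so no direction can be given. In SKOV3/DDP the PAE value was −0.04 ± 0.75 (adjusted p = 1.0), and the PAE effects differed by 0.08 ± 1.05 (adjusted p = 0.991). That difference was −2.11 after the trend was removed, a change of sign without a call (adjusted p = 0.1456). With PAE in both lines SNAI1 was lower in SKOV3/DDP, with a log2 fold change of −3.42 ± 0.81 (adjusted p = 0.00234). Without SKOV3_PAE replicate 1, which had the highest level of all 12, the difference was at its smallest, and over the 6 fits without a library it ranged from −3.96 to −1.71 with a highest adjusted p of 0.0252.

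SNAI2 (gene ID 6591, chromosome 8, 48917598 to 48921429, minus strand) encodes Slug. It was at 1.86, 1.02 and 1.36 CPM in SKOV3 (21, 12 and 16 counts) and at 13.5, 5.89 and 8.84 CPM in SKOV3_PAE. SKOV3/DDP had 0, 5 and 1 counts and SKOV3/DDP_PAE 9, 5 and 4 counts, at most 0.442 CPM. All SKOV3 and SKOV3_PAE libraries were above all SKOV3/DDP and SKOV3/DDP_PAE libraries. The log2 fold change between the untreated lines was −3.49 ± 0.77 (adjusted p = 0.00246), and −5.13 after the trend was removed. Leaving out SKOV3/DDP replicate 2 gave −5.22 and leaving out replicate 1 of that group −2.86, called in both. With PAE in both lines it was −4.94 ± 0.61 (adjusted p = 8.27e-06). SNAI2 rose with PAE in SKOV3 by 2.73 ± 0.54 (adjusted p = 2.94e-04), but the value after the trend was removed, 0.70, was not called (adjusted p = 0.258). In SKOV3/DDP it was 1.24 ± 0.80 (adjusted p = 0.267). Without SKOV3/DDP replicate 2, which held 5 of the 6 counts of its group, it was 3.04 and called (adjusted p = 0.0388). The PAE effects differed by −1.49 ± 1.06 (adjusted p = 0.238). That difference was 0.48 after the trend was removed, a change of sign without a call (adjusted p = 0.6965).

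TWIST1 (gene ID 7291, chromosome 7, 19113047 to 19117636, minus strand) had 238, 267 and 260 counts in SKOV3 (21.1, 22.7 and 22.0 CPM) and 97, 158 and 92 counts in SKOV3_PAE (5.64, 8.02 and 4.84 CPM). Like ZEB2, it had no count in the 6 SKOV3/DDP and SKOV3/DDP_PAE libraries. It was at least 363-fold lower in SKOV3/DDP than in SKOV3 (adjusted p = 3.31e-06) and at least 124-fold lower in SKOV3/DDP_PAE than in SKOV3_PAE (adjusted p = 3.20e-07). TWIST1 was the 1 member that fell with PAE in SKOV3, with a log2 fold change of −1.83 ± 0.32 (adjusted p = 2.52e-04) and no overlap between the groups. After the trend was removed the value was 0.38 and not called (adjusted p = 0.274), a change of sign, and its GC content was 57.2%. For ZEB2 and TWIST1 the PAE effect could not be compared between the lines, since SKOV3/DDP had no count in either group.

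Since these are bulk samples, fewer cells with a transcript and less of it per cell cannot be told apart for any of these genes. Pseudogenes of ZEB2 and SNAI1 (ZEB2P1 and SNAI1P1) averaged 0.0105 and 0 CPM, and CDH1 overlaps the pseudogene FTLP14 at 0.316 CPM and FN1 the antisense LOC112268430 at 0.425 CPM.

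Compared between genes as CPM per kilobase of the gene length given in the files, the members stood in a different order in the 2 lines. These levels were not freed of the trend by which values in untreated SKOV3 rose with GC content. SNAI1, FN1 and TWIST1 had GC contents of 58.2%, 42.2% and 57.2%, and ZEB1 and ZEB2 of 38.5% and 39.1%. The part of the trend in this order was not tested. In SKOV3 the highest means were SNAI1 at 91.0 and FN1 at 63.8 CPM per kilobase, whose libraries overlapped (82.1 to 95.5 against 41.4 to 83.2). TWIST1 followed at 12.4 CPM per kilobase without overlap, then CDH1 at 1.56, EPCAM at 0.818 and SNAI2 at 0.648, each overlapping the others. VIM at 0.214 CPM per kilobase ranged from 0 to 0.395, which reached into the range of EPCAM (0.275 to 1.26) and covered ZEB1 at 0.209 and ZEB2 at 0.0570, while ZEB1 (0.103 to 0.335) and ZEB2 (0.0146 to 0.0911) did not overlap each other. In SKOV3/DDP EPCAM led at 187 and CDH1 followed at 90.6 CPM per kilobase, without overlap, ahead of SNAI1 at 8.06, VIM at 4.14 and ZEB1 at 3.10, of which SNAI1 overlapped the other two, and of FN1 at 0.420.

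**Figure D3:**
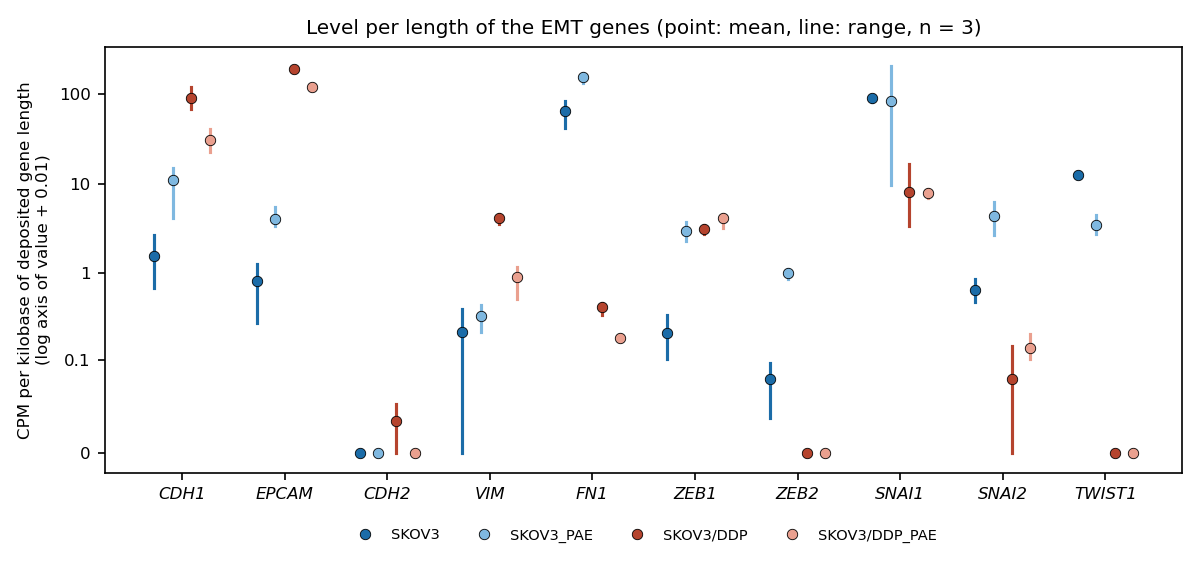
Mean level (points) and range of the 3 libraries (lines) of each gene in the 4 groups, as CPM per kilobase of deposited gene length on a log axis of the value + 0.01. SNAI1 and FN1 were highest in SKOV3, EPCAM and CDH1 in SKOV3/DDP, and SNAI1 spread widest in SKOV3_PAE. The values were not freed of the GC and length trend.

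The wider EMT programme was read from 7 further lists of 82 genes, none of them members, of which 72 passed the filters. Between the untreated lines 65 of the 72 were called, 40 higher and 25 lower in SKOV3/DDP, and 7 were not. With PAE in SKOV3 49 were called (28 higher, 21 lower), with PAE in SKOV3/DDP 33 (4 higher, 29 lower), and between the lines with PAE 49 (23 higher, 26 lower). These counts stand beside the background shares given above for the members. For PAE in SKOV3 the balance of directions depended on the scaling, with 29 higher and 5 lower after the trend was removed and 41 higher and 12 lower with scaling by library size alone. With the trend removed 62 were called between the untreated lines (40 higher, 22 lower), 35 for PAE in SKOV3/DDP (6 and 29) and 54 between the lines with PAE (25 and 29). Of all genes tested, 36.9% were then called higher and 32.7% lower between the untreated lines. With PAE in SKOV3/DDP these shares were 15.3% and 16.5%, and between the lines with PAE 30.3% and 28.9%. Of the genes called in both analyses, 9 changed sign between the untreated lines (F11R, ESRP2, JUP, SNAI3, TCF3, LGALS1, TGFBR1, SMAD2 and SKIL) and 10 did so for PAE in SKOV3, while none did in the comparisons without untreated SKOV3. The PAE effect differed between the lines for 45 genes (12 more positive and 33 more negative in SKOV3/DDP). With the trend removed it differed for 39 (7 and 32), where 5 called in both changed sign. Of all genes tested, 19.0% were then called more positive and 22.8% more negative. With scaling by library size it differed for 47 list genes (7 and 40). Of all 17133 genes tested, 3088 were called more positive and 7808 (45.6%) more negative under that scaling, so the split of all genes was also toward more negative values.

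Of the 16 epithelial junction and surface genes, 15 were tested and 11 were higher and 2 lower in untreated SKOV3/DDP, with a median log2 fold change of 2.97. PKP2, a desmosomal plakophilin, was higher by 7.26 ± 0.43 on the log2 scale (SE), the tight junction protein CLDN3 by 6.93 ± 0.54 and the membrane protease ST14 by 6.41 ± 0.34. The desmosomal PKP3 was lower (−3.08 ± 0.16). With PAE in SKOV3/DDP, 10 of these 15 genes were lower and none higher (median −1.12, against 0.0 over all genes), and all 10 stayed called with the trend removed. Among them were CLDN3 (−1.86 ± 0.39), the junction scaffold TJP3 (−1.81 ± 0.26) and PKP3 (−1.31 ± 0.26). In SKOV3 the list had 3 higher and 6 lower with PAE (median −0.95), but 9 higher and 1 lower with the trend removed and 6 higher and 2 lower with scaling by library size. The desmosomal DSP was higher in both analyses (2.01 ± 0.32, and 0.81 with the trend removed). LSR and CLDN4 turned from −1.76 ± 0.21 and −1.36 ± 0.40 to 1.07 and 0.91, and PKP3 went from −2.71 ± 0.27 to −0.13, not called. Between the PAE-treated lines, 9 were higher and 2 lower in SKOV3/DDP (median 1.93), led by ST14 (5.87 ± 0.38), the polarity protein CRB3 (4.14 ± 0.46) and CLDN4 (3.78 ± 0.43). PKP3 was lower with a log2 fold change of −1.61 ± 0.26.

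Epithelial transcription and splicing factors (11 genes, 10 tested) had 7 higher and 3 lower between the untreated lines (median 2.25), and 7 higher and 1 lower with the trend removed. EHF, an ETS factor of epithelia, had 1540 counts in SKOV3/DDP and 3 in SKOV3, a 361-fold ratio (95% counting interval 123 to 1752). KLF5 was higher by 3.17 ± 0.32 and KLF4 by 1.42 ± 0.37. The splicing factor ESRP2 changed from −0.82 ± 0.19 to 0.57 with the trend removed, called in both. With PAE, EHF moved in opposite directions in the lines. It reached 1361 counts in SKOV3_PAE, a 282-fold ratio to SKOV3 (96.5 to 1371), and fell in SKOV3/DDP by 3.47 ± 0.39 on the log2 scale (log2 fold change −3.47, adjusted p = 7.47e-05). KLF5 (2.99 ± 0.29) and KLF4 (1.40 ± 0.44) also rose with PAE in SKOV3, within a list of 5 higher and 2 lower (median 0.77), or of 5 higher and none lower with the trend removed. In SKOV3/DDP only EHF and ESRP2 (−1.23 ± 0.24) were called among the 10 (median −0.45). Between the lines with PAE, ESRP1 was higher in SKOV3/DDP (1.92 ± 0.75) and EHF (−3.09 ± 0.38) and ESRP2 (−2.12 ± 0.24) were lower, among 2 higher and 3 lower (median −0.07).

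The catenins link cadherins to the actin and keratin cytoskeleton, and 5 of the 7 were tested. Between the untreated lines CTNNB1, which encodes beta-catenin, was higher by 2.73 ± 0.27 on the log2 scale and CTNNA1 had a log2 fold change of −1.97 ± 0.48, while JUP turned from −1.18 ± 0.19 to 0.70 with the trend removed (2 higher and 2 lower in all, 3 and 1 with the trend removed, median −0.38). For PAE in SKOV3, CTNNB1 (2.62 ± 0.30), CTNNA1 (1.09 ± 0.38) and ARVCF (−2.54 ± 0.26) were called only in the analysis without trend removal, and JUP changed sign (−1.48 ± 0.25 and 0.61) within a list of 2 higher and 2 lower (median 0.73). In SKOV3/DDP with PAE, JUP was the 1 catenin called (−0.91 ± 0.24, list median −0.20). Between the lines with PAE, ARVCF was higher (1.67 ± 0.26) and CTNNA1 lower (−2.65 ± 0.40) in SKOV3/DDP (median −0.03).

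Among 13 other EMT transcription factors, 11 were tested and 5 were higher and 5 lower between the untreated lines (median −0.18), and 8 higher and 3 lower with the trend removed. TCF4 had 975 counts in SKOV3/DDP and 1 in SKOV3, a 685-fold ratio (95% counting interval 123 to 27100). PRRX1 was higher by 5.19 ± 0.81 and HMGA2 by 4.85 ± 0.52 on the log2 scale. The forkhead factor FOXC2 had a log2 fold change of −9.35 ± 0.44, and TCF3 turned from −0.48 ± 0.19 to 1.07 with the trend removed. SOX4 rose with PAE in SKOV3 (2.27 ± 0.36, and 2.14 with the trend removed) and fell in SKOV3/DDP (−2.30 ± 0.36). Of the others named by the same rule for PAE in SKOV3, KLF8 (2.39 ± 0.32), FOXC2 (−2.27 ± 0.40) and TCF3 (−1.62 ± 0.23) lost their calls with the trend removed and changed sign, within a list of 5 higher and 3 lower (median 1.20), or of 4 higher and none lower with the trend removed. In SKOV3/DDP FOXC1 rose with PAE (1.34 ± 0.26) and PRRX1 (−2.20 ± 0.57) and HMGA2 (−1.50 ± 0.36) fell, in a list of 1 higher and 4 lower (median −0.49). Between the lines with PAE, 5 were higher and 4 lower in SKOV3/DDP (median 0.71). FOXQ1 (2.42 ± 0.45), FOXC1 (0.74 ± 0.25) and TCF3 (0.71 ± 0.23) were higher, KLF8 had no count in SKOV3/DDP_PAE and was at least 472-fold lower, and FOXC2 was lower (−7.05 ± 0.60).

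The mesenchymal products (17 genes, 16 tested) were split between the untreated lines, with 6 higher and 8 lower in SKOV3/DDP (median −0.92), and 8 higher and 7 lower with the trend removed, where the galectin LGALS1 turned from −2.77 ± 0.21 to 1.01. The matrix glycoprotein SPARC had 1188 counts in SKOV3/DDP and 1 in SKOV3, an 835-fold ratio (95% counting interval 149.6 to 33010), and S100A4 (3.53 ± 0.26) was higher too. The collagen cross-linking enzyme LOXL2 (−9.40 ± 0.39), the matrix protease MMP2 (−9.03 ± 0.30) and the matrix protein TGFBI (−7.36 ± 0.27) were lower, as FN1 was. In SKOV3/DDP, PAE gave 2 higher and 10 lower (median −1.16). SPARC (−3.09 ± 0.39), the receptor kinase AXL (−2.06 ± 0.23) and S100A4 (−1.91 ± 0.24) fell and CDH11, another mesenchymal cadherin, rose (1.71 ± 0.52). In SKOV3 with PAE 4 were higher and 6 lower (median −0.34), but 7 higher and 1 lower with the trend removed and 6 higher and 3 lower with scaling by library size. CALD1 (3.97 ± 0.38) rose in both analyses. LGALS1 (−2.92 ± 0.29) and S100A4 (−1.54 ± 0.25) turned to 0.80 and 1.28, and LOX (2.11 ± 0.35) and MMP14 (−2.13 ± 0.28) were no longer called. Between the lines with PAE 4 were higher and 10 lower in SKOV3/DDP (median −1.44). CDH11 (5.70 ± 0.66), S100A4 (3.23 ± 0.26) and ACTA2 (2.01 ± 0.29) were higher, MMP2 had no count in SKOV3/DDP_PAE and was at least 1533-fold lower, and TGFBI (−8.53 ± 0.34) and LOXL2 (−7.79 ± 0.45) were lower.

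Integrins that bind fibronectin were tested for 4 of 7 genes, 2 higher and 2 lower between the untreated lines (median −0.07). ITGB3 (−4.53 ± 0.32) and ITGA5 (−2.41 ± 0.18), which encodes the alpha chain of the main fibronectin receptor, were lower in SKOV3/DDP, as FN1 was. ITGAV (2.80 ± 0.36) and ITGB1 (2.28 ± 0.41) were higher but not called with the trend removed. The same held for their rise with PAE in SKOV3 (3.56 ± 0.35 and 2.82 ± 0.42), while ITGA5 was lower there in both analyses (−1.75 ± 0.26, list median 1.78). In SKOV3/DDP none of the 4 was called with PAE by edgeR, DESeq2 or limma-voom, and 0 had an unadjusted p under 0.05 in any of the 3 (median −0.31). Between the lines with PAE ITGB3 (−5.61 ± 0.48), ITGAV (−1.01 ± 0.32) and ITGA5 (−0.72 ± 0.26) were lower in SKOV3/DDP (median −0.91).

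All 11 genes of the TGF-beta pathway, a known inducer of EMT, were tested. Between the untreated lines 7 were higher and 3 lower (median 1.45), but 4 higher and 5 lower with the trend removed. The receptor TGFBR1 (1.96 ± 0.31), the signal transducer SMAD2 (2.04 ± 0.27) and the SMAD corepressor SKIL (1.14 ± 0.45) turned to −1.04, −1.37 and −2.01, called in both analyses. The receptors TGFBR3 (4.17 ± 0.37) and TGFBR2 (3.41 ± 0.37) were higher in SKOV3/DDP in both analyses, while SMAD4 (2.88 ± 0.19) and the ligand TGFB1 (−2.15 ± 0.20) were not called with the trend removed. In SKOV3 PAE gave 7 higher and 1 lower (median 2.45), but 2 higher and 2 lower with the trend removed, where SMAD2 turned from 2.58 ± 0.25 to −0.73. The rises of SKIL (3.83 ± 0.40), TGFBR1 (3.20 ± 0.29) and TGFB2 (2.89 ± 0.43) were not called with the trend removed, and TGFB1 was lower in both analyses (−3.11 ± 0.28, and −0.61 with the trend removed). With PAE in SKOV3/DDP TGFBR1 rose (0.83 ± 0.26) and TGFBR2 (−1.18 ± 0.35) and SMAD3 (−0.78 ± 0.21) fell (median −0.17). Between the lines with PAE TGFBR3 (1.18 ± 0.32) and SMAD4 (0.70 ± 0.25) were higher, and TGFB2 (−6.62 ± 0.53) and SKIL (−2.79 ± 0.38) lower, in a list of 2 higher and 3 lower (median 0.11).

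**Figure D4:**
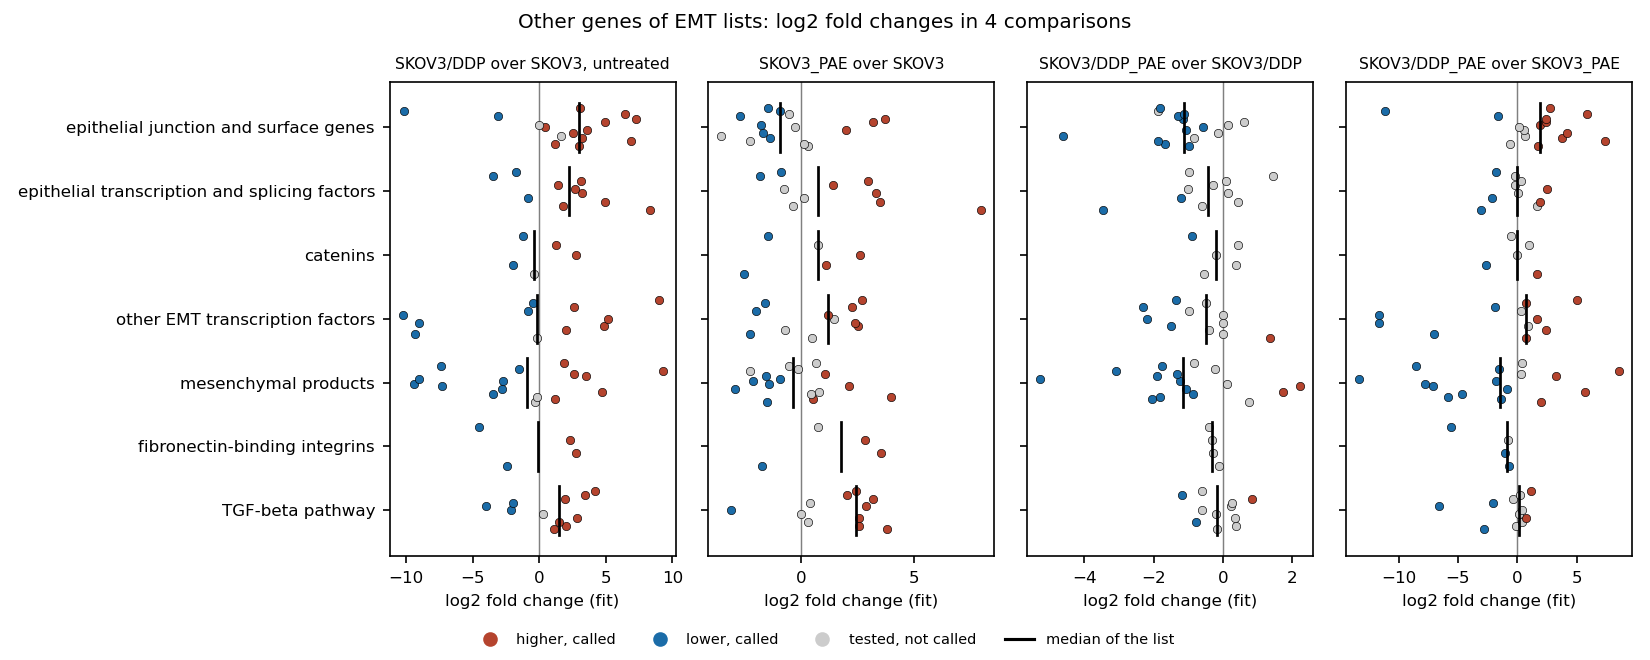
Fitted log2 fold change (horizontal axis) of each tested gene of the 7 other EMT lists (rows) in 4 comparisons, coloured by whether it was called higher or lower, with the median of each list as a black line. Genes without a count in 1 group are drawn at the fitted value, and the epithelial junction genes lie mostly right of zero between the untreated lines (11 of 15 called higher) and left of zero with PAE in SKOV3/DDP (10 of 15 called lower). The mesenchymal products also lie mostly left of zero with PAE in SKOV3/DDP (10 of 16 called lower). Of all genes tested, 46.1% were called higher between the untreated lines and 14.7% lower with PAE in SKOV3/DDP.

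The genes most like CDH1 over the 12 libraries, by the smallest root mean square difference of gene-centred log2 CPM among 9947 genes that averaged 10 CPM or more over those libraries, were IGF2BP2 at 0.54, CA12 at 0.55 and FOXO1 at 0.57, against a median of 2.26. IGF2BP2 averaged 4.25, 18.6, 136 and 87.3 CPM in SKOV3, SKOV3_PAE, SKOV3/DDP and SKOV3/DDP_PAE, in the same order of groups as CDH1. For VIM the nearest were CEACAM1 at 0.85, NFE2L3 at 0.91 and SERPINB1 at 0.93, against a median of 2.08 over 9948 genes. The likeness is a description over libraries that share the GC trend of their groups.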

How the data were processed

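RNA was measured by sequencing of 12 libraries, 3 for each of 4 groups. Per the labels, mRNA was purified on poly-T beads before NEBNext Ultra library preparation. The submitters' processing notes name HISAT2 2.0.5, StringTie 1.3.3b, DESeq2 and edgeR. The strand and the setting of counting are not given in the sources used here. The deposited values are raw counts per gene, 1 file for each library, with GRCh38 coordinates. Of 47219 loci, 869 without a gene name (0.126 to 0.678% of counts) were left out, and 46350 remained.

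In edgeR 4.0.16 (R 4.3.3), low counts were removed by filterByExpr, TMM factors were computed, and groups were tested by quasi-likelihood with Benjamini-Hochberg adjustment over all genes tested. Untreated lines were compared in a fit of 6 libraries (15323 genes), and the other comparisons came from 1 fit of 12 libraries with 4 groups (17133 genes). CPM were normalized over the 12 libraries. Each standard error was taken as the log2 fold change over the root of its F statistic. A group without counts was set to 3 counts for a lower bound, and for 1 to 3 counts the ratio has a 95% counting interval. The GC and length trend was fitted per library by splines with 5 degrees of freedom, from GENCODE 29, and passed to the fit as offsets. Other alternatives were DESeq2 1.42.0, limma-voom (limma 3.58.1), library size scaling, no filter, at least 10 counts in every library, a replicate block, other sets of libraries in the fit, and each library left out. The fits were tested on simulated counts with known changes in some genes and no GC or length trend. That simulation cannot show how the fits behave under the trend seen here.

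All 10 members are described. Of the other lists, the text names up to 3 genes of each sign per list and comparison by size of log2 fold change, among those called that reached a mean of 10 CPM in the higher group, apart from a few that are not reported here. Further list genes are named because their sign turned with the trend removed, and were chosen after their values were seen. The members and lists were chosen with earlier results of these data known. Replicates with the same number did not deviate together (r −0.263 to 0.182 over 6 pairs of groups) and were treated as unpaired. No pair of replicates agreed within sampling noise (chi-square per degree of freedom at least 16.6).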

Additional observations from a re-analysis of the deposited data

Results flagged for a closer look

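For 5 of the 9 genes tested the effect of PAE differed between the lines, by the interaction term of the edgeR fit of all 12 libraries with 3 in each group. Of all genes tested 62.9% were called in the same way, so this count is near the background. The 9 include ZEB2 and TWIST1, which had no count in either SKOV3/DDP group and could not be called. The log2 fold change with PAE in SKOV3/DDP minus that in SKOV3 was −4.39 for CDH1 (adjusted p = 4.99e-05), −3.42 for ZEB1 (1.32e-05), −2.97 for EPCAM (4.55e-05), −2.78 for VIM (0.0111) and −2.47 for FN1 (3.54e-05). Over all genes tested this difference had a median of −0.622. CDH1 was higher with PAE in each of the 3 SKOV3 libraries and lower in each of the 3 SKOV3/DDP libraries than in any untreated library of the same line. After the GC and length trend was removed, the differences of CDH1 (−3.66) and EPCAM (−2.62) were still called, and those of VIM (−2.08), ZEB1 (−0.41) and FN1 (0.11) were not.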

How the results depend on the processing

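With at least 10 counts required in every library, the members called fell to 4 between the untreated lines (also by the study's criteria), 3 for PAE in SKOV3, 3 for the difference of the PAE effects and 3 between the lines with PAE, and the other list genes to 41, 32 and 27 (untreated lines, PAE in SKOV3, lines with PAE), since fewer genes were tested. Of the members, CDH1, FN1, ZEB1 and SNAI1 alone met that requirement. The share of all genes called is not given here for this filter, for the fits without a library or for the replicate block. The counts from these settings are therefore not read against a background. With the GC and length trend removed, 6 members were called between the untreated lines, 4 for PAE in SKOV3 and 2 for the difference. Of all genes tested, 69.6%, 50.1% and 41.7% were then called. In 4 cases the value reversed: FN1 with PAE in SKOV3 (−1.41), SNAI1 (2.34) and TWIST1 (0.38) there, and the difference for FN1 (0.11). The cause was not tested. Over all alternatives, 546 of 573 values of 40 member results kept their side of the threshold and, where called, their direction. Of these, 19 differed in sign from the reported value without a call in either, while 18 of the 573 lost a call and 5 gained one. Each library left out in turn gave 8 to 8, 7 to 8, 2 to 3, 5 to 5 and 7 to 8 members called in the order untreated lines, PAE in SKOV3, PAE in SKOV3/DDP, difference, lines with PAE. The other lists gave 59 to 64, 46 to 49, 22 to 31, 39 to 44 and 44 to 47 genes. Where 2 libraries were left in a group, their spread was assumed to be that of the other groups. With the replicate number as a block, 8, 7, 3, 5 and 7 members were called, VIM between the lines with PAE being the 1 lost (1.40, adjusted p = 0.0716). In each pair of groups, 0 or 1 of the 3 libraries correlated best with its own number. Depth limits CDH2, which was untested, and VIM, SNAI2, ZEB2 and EPCAM in SKOV3, each with at most 23 counts in a library.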
